A study of Homo sapiens with 8 samples.

Results

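Interferon-stimulated genes were described in CUTLL1, an established human T-cell acute lymphoblastic leukemia line in which the NOTCH1 pathway is constitutively active. They comprised 9 genes: IFIT1, IFIT2, IFIT3, IFIT5, ISG15, MX1, OAS1, IRF7 and IRF9, out of 19775 genes tested. The array annotation gave these genes 14 probe sets. Of these, 13 listed a single gene (2 probe sets each for IFIT2, IFIT3, IFIT5 and OAS1, and 1 each for the other 5 genes), and 1 listed both RNF31 and IRF9 and was set aside. All 9 genes were tested, since no filter on dim genes was applied. Cells were cultured for 48 h with PF-03084014 and dexamethasone together at 1 microM each (the combination), with 1 microM PF-03084014, with 1 microM dexamethasone, or with the vehicle DMSO, and each treatment had 2 arrays. PF-03084014 inhibits gamma-secretase, the protease that releases the active part of NOTCH receptors. Dexamethasone is a synthetic agonist of the glucocorticoid receptor. The labels name no interferon or virus as a treatment, and all groups came from the same line in serum-supplemented medium.

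Interferons are cytokines released on detection of foreign nucleic acid. Type I interferon binds the receptor chains IFNAR1 and IFNAR2, the kinases JAK1 and TYK2 then pass the signal on, and a complex that holds IRF9 binds the interferon-stimulated response element in the promoters of target genes. Many of the targets are kept at low levels until interferon arrives, but they can also be transcribed at a basal rate without it. In the mouse, Ifit1, Ifit2 and Ifit3 were also named glucocorticoid-attenuated response genes, because glucocorticoid reduced their induction in stimulated cells.

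Promoter sequences from 250 bases before to 50 bases after the start, taken from RefSeq (GRCh38.p14), were matched for 7 of the 9 genes, not for IFIT2 and IRF7. The sequences of the genes that fell, IFIT1 and OAS1, are shown with those of ISG15 and IFIT3, which were not called, so that the response element of each can be compared. Capitals mark the core of the interferon-stimulated response element, which was searched as GAAA, any 2 bases and GAAA, on either strand.
IFIT1, chr10:89392373-89392672, plus strand: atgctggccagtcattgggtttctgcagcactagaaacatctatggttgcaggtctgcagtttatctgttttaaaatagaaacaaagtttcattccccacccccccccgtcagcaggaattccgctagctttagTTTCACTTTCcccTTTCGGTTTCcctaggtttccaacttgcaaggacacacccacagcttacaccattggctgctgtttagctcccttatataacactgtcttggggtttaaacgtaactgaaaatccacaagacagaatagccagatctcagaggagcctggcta
OAS1, chr12:112906712-112907011, plus strand: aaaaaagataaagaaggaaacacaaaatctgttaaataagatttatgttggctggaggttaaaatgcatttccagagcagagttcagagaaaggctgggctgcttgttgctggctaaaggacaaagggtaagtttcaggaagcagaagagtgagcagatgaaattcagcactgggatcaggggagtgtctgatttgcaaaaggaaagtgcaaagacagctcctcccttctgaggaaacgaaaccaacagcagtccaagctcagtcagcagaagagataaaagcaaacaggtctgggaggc
ISG15, chr1:1013247-1013546, plus strand: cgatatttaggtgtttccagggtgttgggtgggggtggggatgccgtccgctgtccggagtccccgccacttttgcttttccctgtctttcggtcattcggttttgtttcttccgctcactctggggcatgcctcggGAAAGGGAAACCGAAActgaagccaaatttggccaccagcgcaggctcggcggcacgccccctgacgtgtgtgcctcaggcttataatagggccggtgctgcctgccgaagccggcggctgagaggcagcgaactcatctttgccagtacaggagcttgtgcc
IFIT3, first of 2 starts, chr10:89327747-89328046, plus strand: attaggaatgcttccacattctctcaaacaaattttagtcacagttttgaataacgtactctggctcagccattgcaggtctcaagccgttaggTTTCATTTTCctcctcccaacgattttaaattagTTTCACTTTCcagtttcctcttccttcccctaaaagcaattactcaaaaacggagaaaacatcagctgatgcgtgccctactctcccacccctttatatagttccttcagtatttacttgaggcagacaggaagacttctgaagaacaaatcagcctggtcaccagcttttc

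The motif was found 2 times in the IFIT1 sequence, 2 times in the IFIT3 sequence and 2 times, overlapping within 16 bases, in that of ISG15. OAS1 had no match in this window, but its sequence holds the stretch gaaacgaaa, where 2 GAAA stand 1 base apart. The search did not cover that spacing, so the missing match does not mean that OAS1 lacks a response element. The motif as searched was present in 7 of the 10 listed promoters of these genes, against 3.57% of all 35116 promoters. The 7 belong to IFIT1, IFIT3, IFIT5, ISG15 and MX1. The core of the glucocorticoid response element, ACANNNTGT, was found in 1 of the 10 promoters of these genes (MX1) and in 5.37% of all promoters, and the core of the site bound by the NOTCH partner RBPJ, TGGGAA, in 1 (IRF9) and in 24.0%. None of these matches overlapped a marked response element.

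Intensities are linear probe-set values as deposited, and changes are differences of log2 values with intensities under 16 set to 16. Array medians were 61.8 to 63.9 except on the second combination array, at 76.3. The combination against DMSO is therefore also given without that array for each of the 9 genes. For the pathway lists, the calls that ended or were added without it are given. The median of 27 bacterial control probe sets, a measure of background, was 18.6 to 23.4, and their upper quartile was 26.6 to 31.7. As checks of the compounds, NRARP, a NOTCH target, changed by -3.31 with the combination and by -2.66 with PF-03084014, and TSC22D3, a glucocorticoid receptor target, by 3.84 with the combination and 3.34 with dexamethasone. All 8 T lineage markers, among them CD3D, CD3E and CD7, averaged at least 665, whereas the plasmacytoid dendritic markers CLEC4C, LILRA4 and IL3RA averaged 24.0 to 56.5. Of 22 measured markers of other cell types, 7 averaged at least 100 (CD79A, CSF1R, ITGAM, KLRD1, NCR1, NKG7 and COL1A1). Their summed intensity over all 22 was 2395 and 2931 with the combination, 2852 to 2954 with PF-03084014, 2888 to 2989 with dexamethasone, and 3093 to 3213 with DMSO. ITGAM read 112 and 102 with the combination, against 330 and 372 with DMSO, and NKG7 606 and 512, against 1262 and 1106. CD79A read 504 and 585 with the combination, against 297 and 300 with DMSO, and CSF1R 104 and 210, against 86.3 and 99.7, so both were higher. KLRD1 (127 and 98.0 against 130 and 107), NCR1 (133 and 362 against 146 and 144) and COL1A1 (117 and 209 against 143 and 144) overlapped with DMSO. The part of these markers in the results was not tested. The measurement is on bulk RNA, so fewer cells that express a gene and less RNA per cell cannot be told apart. The labels do not say that replicates were separate cultures, so p-values measure the spread between these samples only, and the number of arrays limits the precision.

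IFIT1 fell and IFIT2 rose with the combination, and OAS1 fell to below the intensity floor, while the other 6 genes were not called. These 3 of 9 genes (1 higher and 2 lower) stand beside 11.9% of all genes called in that comparison (6.42% higher and 5.52% lower). Of those called genes 53.8% were higher, or 39.7% with arrays shifted to a common median. A call is an adjusted p under 0.05, by limma with Benjamini-Hochberg adjustment over all genes. With PF-03084014 alone and with dexamethasone alone, 0 of the 9 genes were called by limma. An unadjusted p under 0.05 was found for 2 (IFIT1 and IFIT2) and 1 (IFIT2), beside 13.2% and 8.96% of all genes. Of all genes 0.819% were called with PF-03084014 (0.47% higher and 0.349% lower) and 0.101% with dexamethasone (0.086% higher and 0.0152% lower). Against dexamethasone alone, 2 of the 9 genes (IFIT1 and OAS1, both lower) were called with the combination, where 7.23% of all genes were (3.26% higher and 3.97% lower). Against PF-03084014 alone none was called by limma, where 2.84% of all genes were (1.09% higher and 1.75% lower). In that comparison 3 of the 9 genes had an unadjusted p under 0.05, beside 18.7% of all genes. The opposite changes of IFIT1 and IFIT2 were known when the genes were chosen, so their p-values are no independent support for that pattern. All 3 comparisons use the same DMSO arrays.

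**Figure D1:**
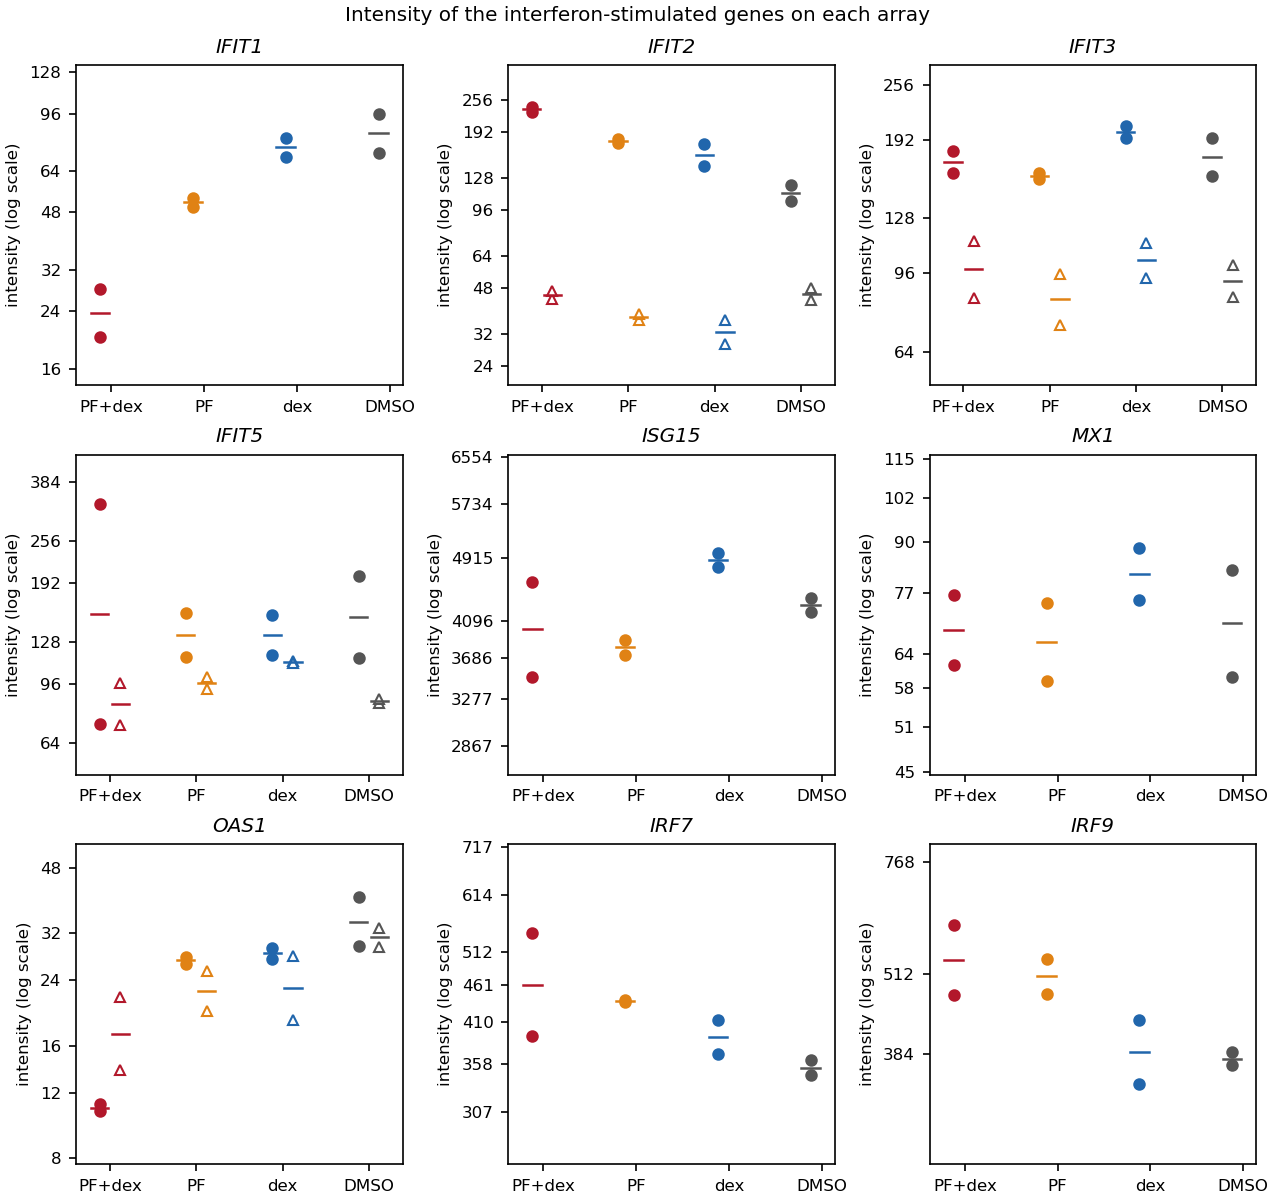
Intensity (log scale) of each gene on the 2 arrays of the combination (PF+dex), PF-03084014 (PF), dexamethasone (dex) and DMSO groups. Filled circles are the probe set used for tests, open triangles a second probe set where there is one, and short lines the means of log2 values; IFIT1 reads 20.1 and 28.1 with the combination, below every other array, and the tested IFIT2 probe set reads 229 and 241, above every other array.

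IFIT1 encodes an effector that binds RNA whose cap lacks ribose methylation and blocks its translation. Its probe set read 28.1 and 20.1 with the combination, 49.9 and 53.2 with PF-03084014, 71.0 and 81.0 with dexamethasone, and 72.8 and 95.8 with DMSO. The combination arrays were the lowest of all, the PF-03084014 arrays came next, and the dexamethasone and DMSO arrays overlapped. On the combination arrays IFIT1 lay between the median and the upper quartile of the bacterial controls, not above background, so its fall is given as a bound. Here and below such a bound allows for background alone, and the estimate behind it still has its SE. With the combination the log2 change of IFIT1 against DMSO was -1.81 ± 0.23 (limma adjusted p = 0.0114). The level was estimated to be at least 3.51-fold lower. With PF-03084014 the difference was -0.70 ± 0.23 (estimate ± SE, adjusted p = 0.299) and with dexamethasone -0.14 ± 0.23 (adjusted p = 0.961), neither of them called. Against dexamethasone alone the fitted change was -1.67 ± 0.23 (adjusted p = 0.0228), and against PF-03084014 alone it stood at -1.12 ± 0.23 (adjusted p = 0.0862). The call against dexamethasone ended without the second combination array (-1.43, adjusted p = 0.0506) and without either array of PF-03084014 or of dexamethasone (adjusted p = 0.0654 to 0.132). It also ended with array weights (adjusted p = 0.0700), with arrays shifted to a common median (adjusted p = 0.0553) and with a floor of 64 (adjusted p = 0.447).

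The departure of IFIT1 from additivity of the compounds was -0.98 ± 0.33 (adjusted p = 0.502). No gene of the 19775 had a called interaction (0%), although 1792 had an unadjusted p under 0.05, IFIT1 among them. Without the second combination array the change of IFIT1 against DMSO was -1.57 (adjusted p = 0.0296). That call ended without the second DMSO array (-1.62, adjusted p = 0.0594) and with a floor of 64 (-0.38, adjusted p = 0.208), which lies above every IFIT1 value in the cells given PF-03084014, alone or combined.

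IFIT2, which encodes an RNA-binding relative of IFIT1 that also promotes cell death, changed the other way. Its tested probe set read 229 and 241 with the combination, 175 and 181 with PF-03084014, 142 and 172 with dexamethasone, and 105 and 120 with DMSO. Both arrays of every treatment were above both DMSO arrays, and the combination arrays were above all others. Across all genes, 29.1%, 26.9% and 24.9% were higher without overlap with the combination, PF-03084014 and dexamethasone. IFIT2 rose by 1.07 ± 0.15 with the combination (adjusted p = 0.0139), or 2.10-fold. The single compounds gave 0.67 ± 0.15 (PF-03084014, adjusted p = 0.144) and 0.48 ± 0.15 (dexamethasone, adjusted p = 0.442), which were not called. The combination stood at 0.59 ± 0.15 against dexamethasone (adjusted p = 0.0843) and 0.40 ± 0.15 against PF-03084014 (adjusted p = 0.245), and the interaction was -0.08 ± 0.21 (adjusted p = 0.911).

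The second IFIT2 probe set did not show this order. It read 43.6 and 46.6 with the combination, 36.2 and 38.1 with PF-03084014, 29.2 and 36.1 with dexamethasone, and 43.3 and 48.2 with DMSO. Its combination and DMSO arrays overlapped, at a difference of -0.02 ± 0.15 (adjusted p = 0.997 over all probe sets). Its arrays of either single compound lay below both DMSO arrays, opposite to the tested probe set. Those differences were -0.30 ± 0.15 with PF-03084014 and -0.49 ± 0.15 with dexamethasone, neither of them called. The mean of both probe sets gave 0.53 (adjusted p = 0.105), so the IFIT2 call belongs to the brighter probe set alone. That call ended without the first DMSO array (0.97, adjusted p = 0.0735) or the second (1.17, adjusted p = 0.0541) and held without the second combination array (1.03, adjusted p = 0.0421). It also ended with array weights (adjusted p = 0.0726). With dim genes left out, IFIT2 was called against dexamethasone as well (0.59, adjusted p = 0.0406).

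**Figure D2:**
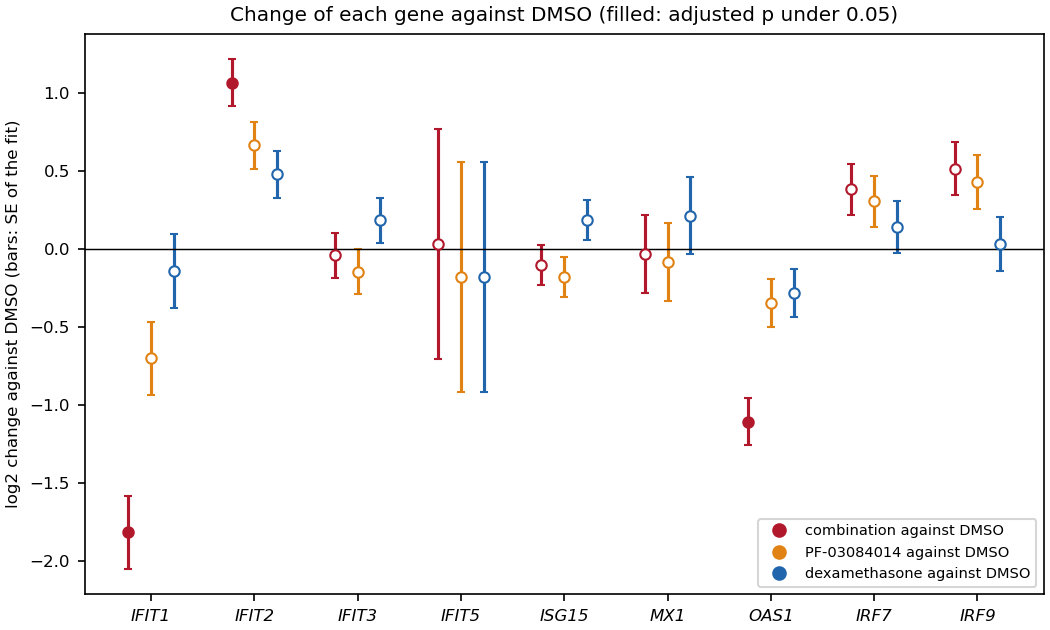
Log2 change of each gene against DMSO, with the combination, PF-03084014 and dexamethasone side by side. Bars are standard errors of the fit over all 8 arrays and filled points have an adjusted p under 0.05: IFIT1 (-1.81), IFIT2 (1.07) and OAS1 (-1.10), all with the combination. The IFIT1 change is a bound, and the OAS1 combination values were set to the floor.

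IFIT3, whose product binds and stabilises IFIT1, lies beside IFIT2, IFIT1 and IFIT5 on chromosome 10. It read 162 and 181 with the combination, 162 and 157 with PF-03084014, 194 and 207 with dexamethasone, and 194 and 160 with DMSO. The combination and PF-03084014 arrays each overlapped with DMSO, the combination arrays lay just above those of PF-03084014, and the dexamethasone arrays were the highest, at 0.19 ± 0.14 against DMSO (adjusted p = 0.821). With the combination the change was -0.04 ± 0.14 (adjusted p = 0.901), or -0.12 without the second combination array. The second IFIT3 probe set stood at 0.09 ± 0.24.

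IFIT5, which encodes a protein that binds RNA with a triphosphate end, could not be measured with any precision by its brighter probe set. This probe set read 73.0 and 329 with the combination, 156 and 116 with PF-03084014, 154 and 117 with dexamethasone, and 200 and 115 with DMSO. The 2 combination arrays were the lowest and the highest of all, and the standard error of 0.74 was the widest of the 9 genes. Its change with the combination was 0.03 (adjusted p = 1.00), or -1.05 without the second combination array (adjusted p = 0.225). The second IFIT5 probe set was tighter, at 72.2 and 96.6 with the combination, 92.5 and 100.3 with PF-03084014, 113 and 111 with dexamethasone, and 84.1 and 86.4 with DMSO. Its dexamethasone arrays were the highest, at 0.39 ± 0.18 against DMSO (adjusted p = 0.730), and it was not called in any comparison.

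ISG15 encodes a ubiquitin-like protein that is attached to other proteins during the interferon response. Its intensities were 4587 and 3493 with the combination, 3884 and 3717 with PF-03084014, 4986 and 4780 with dexamethasone, and 4379 and 4201 with DMSO. The combination arrays spanned the range of DMSO and PF-03084014, and those of dexamethasone were the highest. The changes were -0.10 ± 0.13 with the combination (adjusted p = 0.655), -0.17 ± 0.13 with PF-03084014 (adjusted p = 0.689) and 0.19 ± 0.13 with dexamethasone (adjusted p = 0.792). The change was 0.10 without the second combination array (adjusted p = 0.313). Without the first, the second alone gave a called -0.30 (adjusted p = 0.0211), a fit that assumes 1 array varies like the other groups.

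MX1 encodes a dynamin-like GTPase that traps viral ribonucleoproteins. It read 61.7 and 76.4 with the combination, 74.5 and 58.9 with PF-03084014, 75.3 and 88.0 with dexamethasone, and 59.7 and 82.4 with DMSO. All groups overlapped with DMSO, and the largest of the 3 differences was 0.22 ± 0.25 with dexamethasone (adjusted p = 0.917). With the combination it was -0.03 ± 0.25, or -0.18 without the second combination array (adjusted p = 0.762).

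OAS1 makes the oligoadenylates that activate RNase L, an enzyme that degrades RNA. Its tested probe set read 11.2 and 10.7 with the combination, 27.7 and 26.6 with PF-03084014, 29.3 and 27.3 with dexamethasone, and 39.9 and 29.6 with DMSO. Both combination arrays lay under the floor of 16 and were set to it. The change of OAS1 against DMSO was then -1.10 ± 0.15 (limma adjusted p = 0.0134). The second DMSO array was also below the upper quartile of the bacterial controls, so no fold or bound is given. PF-03084014 and dexamethasone stood at -0.34 ± 0.15 (adjusted p = 0.440) and -0.28 ± 0.15 (adjusted p = 0.716). Against dexamethasone, whose arrays were also below that upper quartile, the change of OAS1 was -0.82 (adjusted p = 0.0415). It was not called against PF-03084014 (-0.76, adjusted p = 0.0767). The call against dexamethasone ended without the second combination array (adjusted p = 0.109) and without either array of PF-03084014 or of dexamethasone (adjusted p = 0.0940 to 0.195). It also ended with array weights (adjusted p = 0.154), a common median (0.0656), no trend (0.0513), every probe set tested on its own (0.0565) and the mean of both probe sets (-0.56, adjusted p = 0.109).

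On every array except the first of DMSO, this OAS1 probe set was below the upper quartile of the bacterial controls. The second OAS1 probe set, at 21.7 and 13.8 with the combination and 29.4 and 33.2 with DMSO, differed by -0.75 ± 0.26 (adjusted p = 0.160). It read 19.8 and 25.4 with PF-03084014 and 27.8 and 18.8 with dexamethasone. Without the second combination array the change of the tested probe set was again -1.10. It could not differ, because both combination arrays were set to the intensity floor, so nothing is drawn from it. The floor also left the combination group without spread, which can lower the pooled SE behind the p-values of this probe set. The call against DMSO ended with array weights (adjusted p = 0.0720). With a floor of 64 every OAS1 value was at the floor.

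**Figure D3:**
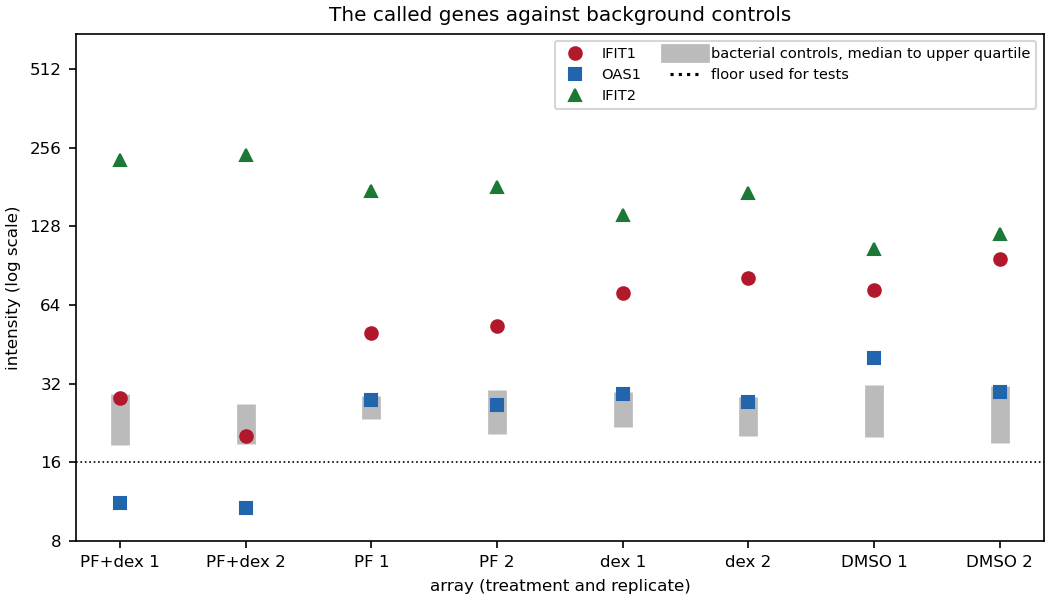
Intensity (log scale) of IFIT1, OAS1 and IFIT2 (tested probe sets) on each of the 8 arrays, with the range from the median to the upper quartile of 27 bacterial control probe sets as grey bars and the floor of 16 as a dotted line. IFIT1 enters the grey range on both combination arrays and OAS1 lies under the floor there, whereas IFIT2 stays above 100 on all arrays.

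The transcription factor genes IRF7 and IRF9 were not called in any comparison. IRF9, which gives the interferon-activated complex its DNA binding, read 613 and 475 with the combination, 477 and 542 with PF-03084014, 434 and 344 with dexamethasone, and 386 and 369 with DMSO. Both arrays of the combination and of PF-03084014 were above both DMSO arrays, and those of dexamethasone overlapped with DMSO. The differences were 0.52 ± 0.17 (adjusted p = 0.123), 0.43 ± 0.17 (adjusted p = 0.379) and 0.04 ± 0.17 (adjusted p = 1.00). When genes below the median intensity were left out, the IRF9 difference with the combination was called (adjusted p = 0.0421). It was 0.70 without the second combination array (adjusted p = 0.0847).

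IRF7, the main activator of interferon alpha genes, read 544 and 392 with the combination, 439 and 437 with PF-03084014, 412 and 370 with dexamethasone, and 345 and 362 with DMSO. Both arrays of every treatment lay above both DMSO arrays, by 0.38 ± 0.16 (adjusted p = 0.201), 0.31 ± 0.16 (adjusted p = 0.539) and 0.14 ± 0.16 (adjusted p = 0.917). Without the second combination array the first alone gave a called 0.62 (adjusted p = 0.0289). The next counts are of arrays that do not overlap, by the tested probe set of each gene alone. With the combination 3 of the 9 genes were higher than with DMSO (IFIT2, IRF7 and IRF9) and 2 lower (IFIT1 and OAS1), against 29.1% and 21.5% of all genes. With PF-03084014 3 were higher (IFIT2, IRF7 and IRF9) and 3 lower (IFIT1, ISG15 and OAS1), against 26.9% and 19.6%. With dexamethasone 4 were higher (IFIT2, IFIT3, IRF7 and ISG15) and 1 lower (OAS1), against 24.9% and 17.7%. Between the combination and dexamethasone 2 were higher (IFIT2 and IRF9) and 4 lower (IFIT1, IFIT3, ISG15 and OAS1), against 27.9% and 23.4%. Between the combination and PF-03084014 2 were higher (IFIT2 and IFIT3) and 2 lower (IFIT1 and OAS1), against 23.2% and 20.1%. With the combination, the median change of the 9 genes against DMSO was -0.03, and that of all genes 0.06.

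Further genes of the pathway were taken from lists of 138 genes, of which 128 were tested. With the combination 10 of them rose and 11 fell, with a median of 0.09, against 6.42% and 5.52% of all genes called higher and lower. With PF-03084014 none of the 128 was called by limma, where 0.819% of all genes were, and with dexamethasone ISG20 alone rose, where 0.086% of all genes did. Both rises and falls were called in 3 of the 8 lists. Without the second combination array, 10 of the 21 calls ended. They were EPSTI1, IFI6, IFNA8, IRF1, PTPN6, SAMD9, SAMD9L, STAT3, TRIM5 and XAF1. Calls were added for BST2, DDX60, DHX58, PSMB8 and TAPBP. This fit leaves 1 array in the combination group, so nothing is drawn from the added calls. Against dexamethasone 7 of 14 list calls ended without the second combination array (IFNA10, IRF1, IRF4, LY6E, MYD88, SAMD9 and USP18). Against PF-03084014 2 of 5 ended (CMPK2 and JAK1).

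Interferon ligand genes were near background: 1 of 18 averaged at least 100. IFNA8, an interferon alpha gene, read 41.3 and 66.2 with the combination, 29.8 and 34.0 with PF-03084014, 30.0 and 19.9 with dexamethasone, and 20.5 and 17.9 with DMSO. On the DMSO arrays IFNA8 was at the level of the bacterial controls, so it was estimated to be higher with the combination by at least 1.45 (SE 0.30, adjusted p = 0.0382). It was the 1 gene called of the 18, and not without the second combination array (1.11, adjusted p = 0.0934). IFNA10 read 43.4 and 46.7 with the combination, against 13.8 and 12.8 with dexamethasone, both under the floor. It was estimated to be higher with the combination by at least 1.49 (adjusted p = 0.0467). The interferon alpha genes are near-identical in sequence, so their probe sets may not tell them apart.

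Of 10 genes for receptors, kinases and STATs, 2 rose and 1 fell with the combination. IFNGR2, a chain of the interferon gamma receptor, read 346 and 305 with the combination, 580 and 553 with PF-03084014, 630 and 653 with dexamethasone, and 832 and 816 with DMSO. The groups did not overlap, and IFNGR2 fell by 1.34 against DMSO (SE 0.08, adjusted p = 0.00240), by 0.98 against dexamethasone (adjusted p = 0.00898) and by 0.80 against PF-03084014 (adjusted p = 0.0187). JAK1, the kinase shared by the interferon receptors, rose by 0.62 ± 0.04 with the combination against DMSO (adjusted p = 0.00329) and by 0.31 ± 0.04 against PF-03084014 (adjusted p = 0.0325). STAT3 rose by 0.36 ± 0.07. The type I receptor chains IFNAR1 (0.21 ± 0.09) and IFNAR2 (-0.12 ± 0.10) and the kinase TYK2 (0.24 ± 0.10) were not called.

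Among 8 inhibitors of interferon signalling, 1 rose and 2 fell with the combination. USP18, which removes ISG15 from proteins and blocks the type I receptor, read 41.6 and 34.9 with the combination, 60.9 and 73.5 with PF-03084014, 91.0 and 78.4 with dexamethasone, and 102 and 91.7 with DMSO. It was lower with the combination than with DMSO (-1.35 ± 0.19, adjusted p = 0.0142) and than with dexamethasone (-1.15 ± 0.19, adjusted p = 0.0325). SOCS1, which binds and inhibits JAK kinases, rose by 0.71 ± 0.15 (adjusted p = 0.0422), and the phosphatase gene PTPN6 fell by 0.34 (adjusted p = 0.0386). USP18 was also the 1 gene called of 3 tested for conjugation of ISG15.

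Of 8 other interferon regulatory factor genes, IRF1 fell by 0.41 with the combination against DMSO (adjusted p = 0.0449) and by 0.46 against dexamethasone (adjusted p = 0.0446). IRF4 was called only against dexamethasone (1.52 ± 0.29, adjusted p = 0.0448) and stood at 0.71 ± 0.29 against DMSO. Of 14 sensor and adaptor genes the adaptor MYD88 alone was called, with a rise of 0.50 ± 0.05 with the combination (adjusted p = 0.00626) and 0.36 ± 0.05 against dexamethasone (adjusted p = 0.0232).

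Among 55 other interferon-stimulated genes, 5 rose (ISG20, EPSTI1, SAMD9L, ZC3HAV1 and SAMD9), 7 fell (GBP1, CMPK2, PLSCR1, IFI6, XAF1, TRIM5 and PNPT1) and 43 were not called with the combination, with a median of -0.01. ISG20, an exonuclease gene, read 5709 and 4918 with the combination, 1293 and 1331 with PF-03084014, 3662 and 3445 with dexamethasone, and 1114 and 1201 with DMSO. It rose by 2.20 ± 0.08 with the combination (adjusted p = 0.00139) and by 1.62 ± 0.08 with dexamethasone (adjusted p = 0.0190), and the combination was above dexamethasone by 0.58 ± 0.08 (adjusted p = 0.0253) and above PF-03084014 by 2.01 ± 0.08 (adjusted p = 0.00341). Both groups given dexamethasone were above both groups without it.

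EPSTI1 read 139 and 182 with the combination and 55.0 and 63.5 with DMSO, and rose by 1.43 ± 0.24 (adjusted p = 0.0219). The guanylate-binding GTPase gene GBP1 read 101 and 136 with the combination and 346 and 291 with DMSO, and fell by 1.43 (SE 0.18, adjusted p = 0.0104). CMPK2, a mitochondrial nucleotide kinase gene, fell by 0.80 against DMSO (adjusted p = 0.0174) and by 0.80 against PF-03084014 (adjusted p = 0.0423). PLSCR1, a phospholipid scramblase gene, fell by 0.68 against DMSO (adjusted p = 0.00528), by 0.59 against dexamethasone (adjusted p = 0.0150) and by 0.73 against PF-03084014 (adjusted p = 0.0154). The zinc finger antiviral gene ZC3HAV1 rose by 0.64 ± 0.08 against DMSO (adjusted p = 0.00904) and 0.47 ± 0.08 against dexamethasone (adjusted p = 0.0304), and LY6E fell by 1.37 against dexamethasone alone (adjusted p = 0.0463).

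**Figure D4:**
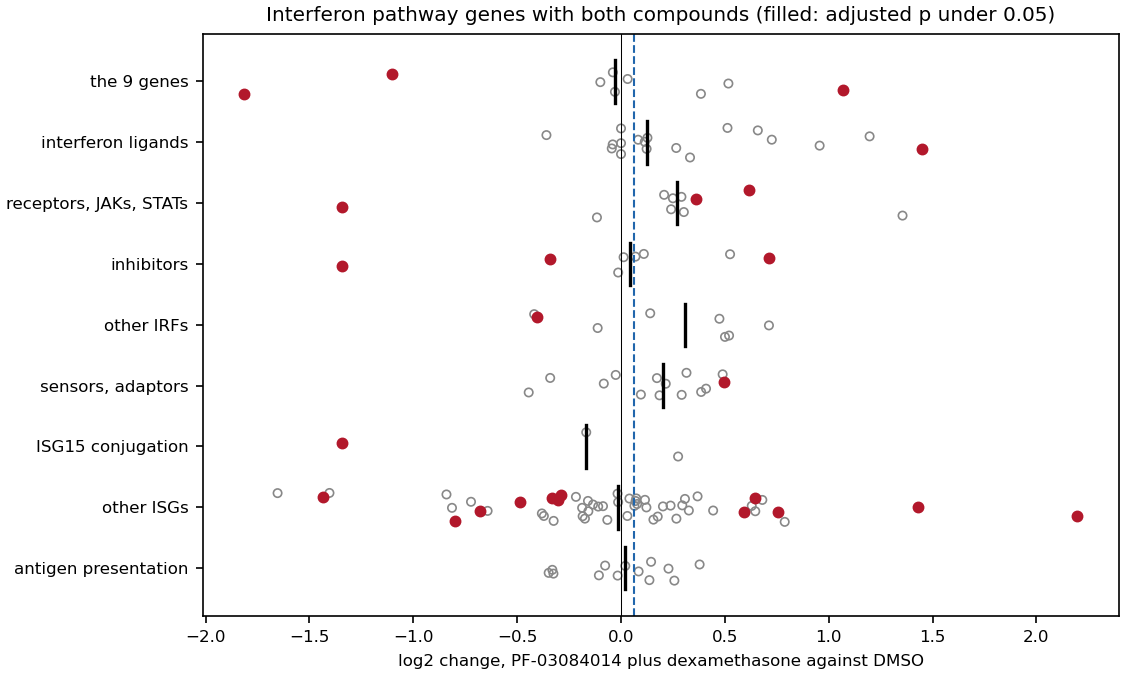
Log2 change with the combination against DMSO for the 9 genes and for each list of pathway genes, 1 point per gene, with vertical jitter only to separate points. Filled points have an adjusted p under 0.05, black ticks are list medians and the dashed line is the median of all genes, 0.06; USP18 appears in 2 lists.

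The genes whose log2 values followed IFIT1 most closely over the 8 arrays were NT5DC2 (Pearson r = 0.989), FAM162A (0.988), DDC (0.987), ARG2 (0.987) and BAG3 (0.987), out of 1662 genes with a mean of at least 100 and a range of at least 1 log2 unit. Those closest to IFIT2 were the recombinase gene RAG1 (0.989), PRDM11 (0.980), OSBPL5 (0.980), ABAT (0.979) and the recombinase gene RAG2 (0.979). None of the 10 is in the interferon lists, but the search left out dim genes, among them OAS1, USP18, EPSTI1 and LY6E. How many list genes were among those searched was not counted, so nothing is drawn from this absence. RAG1 read 3856 and 5099 with the combination, 2772 and 2893 with PF-03084014, 2055 and 2467 with dexamethasone, and 1167 and 1321 with DMSO, the same order of groups as IFIT2. Between the members, r was -0.85 for IFIT1 with IFIT2 and 0.87 for IFIT1 with OAS1. These coefficients describe 8 arrays in 4 groups of 2, which share their treatments, and searching many genes favours high values.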

How the data were processed

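Messenger RNA of 8 samples was measured on Affymetrix GeneChip arrays, 2 per treatment. The authors deposited probe-set intensities on a linear scale. Per the labels' protocols, each array took labelled cRNA prepared from 200 ng total RNA by amplification from the 3 prime end. Their summarisation, background step and normalization were not given in the sources used here. Of 54675 probe sets, 41097 listed a single gene in GEO's platform annotation, and the 1801 listing several were left out. Symbols were checked through gene identifiers against RefSeq, which matched 41043 probe sets.

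Intensities below 16 were set to 16 and converted to log2. Each of 19775 genes was represented by its brightest probe set. limma 3.58.1 in R 4.3.3 fitted all 8 arrays with 1 mean for each group and eBayes with trend, leaving 4 residual degrees of freedom, and Benjamini-Hochberg adjustment was made over all genes in each of 6 contrasts (two-sided). The median standard error of a difference was 0.178. It pools 1 spread over all groups. The 9 genes, lists and tests were chosen with earlier results of these data known. Genes named were the 9 members, a set of signalling and control genes, per list and contrast the 2 largest called rises and falls, or the smallest p in a list with no call, and the 5 genes most like IFIT1 and IFIT2. SAMD9L, SAMD9, IFI6, XAF1, TRIM5 and PNPT1, to complete a count, B2M, and BST2, DDX60, DHX58, PSMB8 and TAPBP, called only without 1 array, were named after their values were seen. The comparison of list calls with and without the second combination array was added after seeing the data. Alternatives tried were normalization, floor, filter, probe-set choice, variance model, replicate block and leaving out arrays.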

Additional observations from a re-analysis of the deposited data

How the results depend on the processing

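Limits of the data come first: with 2 arrays per group and a pooled spread, calls move with the error model, and the low intensity of IFIT1 and OAS1 leaves their combination values near background. For the called changes of IFIT1, IFIT2 and OAS1, 54 alternative values kept direction and call and 27 lost the call, and the cause was not tested except that a floor of 64 removes most of the range of IFIT1 and all of that of OAS1. For changes that were not called, 813 values stayed so and 6 became called. The number of the 9 genes called with the combination against DMSO was 1 with array weights and 1 with a floor of 64, and between 1 and 4 with an array left out. Against dexamethasone it was 2, and became 0 with array weights, with arrays shifted to 1 median or with a floor of 64, 1 without trend, with every probe set tested on its own, with the mean of all probe sets or with dim genes left out (IFIT1, MX1 and OAS1 are then not tested, and the 1 call is IFIT2), and 0 to 3 with an array left out. Against PF-03084014 it was 0 and became 0 to 1. The 0 counts with PF-03084014, with dexamethasone and for the interaction did not change, also 0 to 0 with an array left out.

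Counts over all genes moved more. With array weights, 728 genes were called for PF-03084014, 109 for dexamethasone, 859 for the combination, 191 for the combination against dexamethasone and 18 against PF-03084014, where the fit used in the report gave 162, 20, 2360, 1430 and 562. A shift to a common median gave 24, 2, 1057, 329 and 133, of which 25%, 100%, 39.7%, 25.2% and 41.4% were higher, against 57.4%, 85.0%, 53.8%, 45.1% and 38.3%. That shift moved the median of all genes to -0.107 in the interaction, from 0. Without trend the counts were 69, 10, 904 (against dexamethasone) and 260 (against PF-03084014), with the mean of all probe sets 93, 8, 787 and 285, and with dim genes left out 433, 59, 2395 and 960. Quantile normalization gave 11 for dexamethasone. The interaction had 1 call when every probe set was tested on its own and 8 with a floor of 64. With an array left out the counts ran from 0 to 354 for PF-03084014, 0 to 6 for dexamethasone, 826 to 6219 for the combination, 0 to 5826 against dexamethasone, 8 to 3911 against PF-03084014 and 0 to 1016 for the interaction. With a replicate block, 76 genes were called for PF-03084014 and 3 for dexamethasone, and no call of the 9 genes changed. Replicate numbers were not treated as pairs, since deviations of same-numbered arrays correlated at r = -0.010 to 0.082.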

Other observations

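Antigen presentation genes, many of which interferon gamma raises, showed no call. Of 13 tested, 12 averaged at least 100 and 0 were called by limma in any comparison, where 11.9% of all genes were called for the combination against DMSO and 0.101% to 7.23% in the other comparisons between groups. For the combination against DMSO 3 of the 13 had an unadjusted p under 0.05 (HLA-B, HLA-F and NLRC5), as did 28.4% of all genes. Without the second combination array PSMB8 (0.37, adjusted p = 0.0437) and TAPBP (0.52, adjusted p = 0.0227) were called against DMSO. On all arrays the list had changes between -0.35 and 0.38 for the combination against DMSO and a median of 0.02. B2M, the light chain of class I molecules, read 15282 and 13296 with the combination, 15318 and 15005 with PF-03084014, 14246 and 14082 with dexamethasone, and 14408 and 14424 with DMSO. NLRC5, an activator of class I genes and the member with the smallest p, stood at 0.54 ± 0.14 with PF-03084014 (adjusted p = 0.193).

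The probe set annotated to both RNF31 and IRF9 read 325 and 287 with the combination, 256 and 312 with PF-03084014, 286 and 292 with dexamethasone, and 271 and 242 with DMSO. It belongs to no tested gene and was given no test.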
